A study of Mus musculus and Homo sapiens with 20 samples.

Results

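The genes described here are the 1128 autosomal olfactory receptor genes of the mouse, chosen as the protein-coding genes of the GENCODE vM21 annotation on the mm10 (GRCm38) assembly with a symbol that starts with Olfr and a digit. They were 1128 of 20807 autosomal protein-coding genes, and the 7 olfactory receptor genes on the X chromosome were left out. Each gene was taken as its annotated span plus 1 kb on either side, a window with a median length of 7.99 kb. The 1128 windows merged into 1059 intervals that held 9.68 Mb. The genes lay on 17 chromosomes in 53 groups, where a gap of at least 500 kb between successive receptor genes ended a group. The 32 groups with at least 5 genes, called clusters below, held 1087 of them, and 9 genes stood alone. The symbols of 40 genes end in "-ps" with or without a number, although the annotation types them as protein-coding.

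Olfactory receptors are G protein-coupled receptors that detect odorants, and each mature olfactory sensory neuron expresses a single receptor allele and keeps the rest silent. The family is the largest in the mouse genome, and a typical member has its whole coding sequence in an intron-free exon that follows short untranslated exons. In other cell types the genes are silent, and in the olfactory epithelium their clusters are known for constitutive heterochromatin marks. Polycomb repressive complex 1 ubiquitinates histone H2A on a lysine of its tail, which gives H2AK119ub, and Polycomb repressive complex 2 trimethylates a lysine of histone H3, which gives H3K27me3. Both complexes are best known for binding CpG islands at the promoters of silent developmental regulators such as Pax6.

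The study asked how loss of TET2, an oxidase of 5-methylcytosine, changed chromatin. H2AK119ub and H3K27me3 were mapped by CUT&Tag, in which an antibody guides a transposase to cut and tag nearby DNA, in embryonic stem (mES) cells of the mouse and in haematopoietic stem and progenitor cells (HSPC), taken as Lin- c-Kit+ bone marrow cells. Each of the 8 groups (2 cell types, WT or Tet2 KO, 2 marks) had 2 libraries, 16 in all. The mES cells grew in serum with LIF, CHIR99021 and PD0325901 and were passaged off their feeder cells. The WT and Tet2 -/- mES cells were separate lines, so genotype and line cannot be told apart there. The HSPC came from WT C57BL/6 mice and from Tet2 -/- mice backcrossed to that strain, both sexes and aged 6 to 8 weeks, by lineage depletion and c-Kit beads, and the labels describe a culture with added cytokines without saying whether it preceded the assay. The labels number the replicates but do not say that they came from separate cultures or animals. The deposited files listed peak positions only, with no read counts, so the read depth of each library is unknown. The peaks covered between 5.78% and 10.8% of the known autosomal bases, and a bulk peak list cannot tell a mark on few cells from a weak mark on all of them.

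The peak lists hold no transcripts, so the cell labels could be checked only through the marks on marker genes. In HSPC, H3K27me3 peaks covered between 62.9% and 71.7% of the windows of 6 pluripotency genes and between 1.57% and 3.56% of those of 6 blood progenitor genes. In mES cells the same mark covered between 24.0% and 33.9% of the pluripotency windows and between 17.2% and 27.4% of the blood progenitor windows, with 1 or 2 of the 6 pluripotency genes and 5 or 6 of the 6 blood genes touched. By bases covered, the pluripotency windows were thus above the blood windows in each of the 4 mES libraries as well. By the mean over genes the order in mES cells was opposite, at 4.92% to 7.84% for pluripotency and 19.9% to 30.8% for blood genes. H2AK119ub covered 35.5% to 38.5% of the pluripotency bases and 29.2% to 31.1% of the blood bases in mES cells, and 8.56% to 13.9% and 15.3% to 19.9% in HSPC. A peak alone did not mark a silent gene, since H3K27me3 in HSPC touched 11 or 12 of 12 widely expressed genes, covering between 6.87% and 9.93% of their bases. In mES cells the same mark touched 0 to 3 of them, covering between 0% and 0.851%. H2AK119ub touched 8 to 11 in mES cells and 12 in HSPC. For H3K27me3, 10 of these 12 genes were called higher in HSPC by the rule used below, so such calls were not particular to silent genes. All 16 Polycomb target genes taken for contrast were touched by a peak in every one of the 16 libraries.

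Olfactory receptor genes are poor in CpG, and the sequences printed below give examples. The median window held 3.95 CpG per kb against 12.7 in the 19679 other autosomal protein-coding genes and 39.7 in the 16 Polycomb targets. Within 1 kb of the annotated start, the median ratio of observed to expected CpG was 0.109, against 0.509 in other genes and 0.616 in Polycomb targets. No receptor gene exceeded a ratio of 0.6, which 37.0% of other genes did. The sequences around the RefSeq start of 6 genes (GRCm38.p6, 250 bases before the start and 50 after it, 5′ to 3′ on the gene's strand) are shown with each CpG in capitals. The first 3 belong to the receptor genes with the highest mean coverage around the GENCODE start among the 925 with a RefSeq entry. The next 2 have a CpG density nearest the median of the largest cluster and no peak in any library, and Pax6 is the contrast.

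Olfr12: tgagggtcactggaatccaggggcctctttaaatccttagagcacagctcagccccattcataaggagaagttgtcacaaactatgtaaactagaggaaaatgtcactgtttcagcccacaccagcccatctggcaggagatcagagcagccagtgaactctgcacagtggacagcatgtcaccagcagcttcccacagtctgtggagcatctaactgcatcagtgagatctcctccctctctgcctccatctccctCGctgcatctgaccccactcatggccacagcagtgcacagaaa
Olfr1414: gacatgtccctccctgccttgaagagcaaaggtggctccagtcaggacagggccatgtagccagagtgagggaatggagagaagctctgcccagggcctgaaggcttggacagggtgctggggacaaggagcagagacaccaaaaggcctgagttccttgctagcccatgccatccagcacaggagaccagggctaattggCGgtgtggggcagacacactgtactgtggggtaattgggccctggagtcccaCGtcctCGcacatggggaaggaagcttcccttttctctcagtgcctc
Olfr222: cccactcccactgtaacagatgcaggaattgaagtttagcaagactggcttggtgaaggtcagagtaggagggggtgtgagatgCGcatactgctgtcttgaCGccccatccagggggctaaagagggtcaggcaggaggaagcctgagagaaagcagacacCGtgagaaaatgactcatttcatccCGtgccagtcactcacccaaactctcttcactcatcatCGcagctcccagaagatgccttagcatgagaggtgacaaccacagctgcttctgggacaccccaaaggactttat
Olfr1099: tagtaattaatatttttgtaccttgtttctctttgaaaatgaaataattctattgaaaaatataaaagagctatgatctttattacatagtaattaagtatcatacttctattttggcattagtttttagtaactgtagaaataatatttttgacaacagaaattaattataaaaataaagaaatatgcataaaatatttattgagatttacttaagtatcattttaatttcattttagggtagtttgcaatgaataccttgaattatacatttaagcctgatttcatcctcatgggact
Olfr1102: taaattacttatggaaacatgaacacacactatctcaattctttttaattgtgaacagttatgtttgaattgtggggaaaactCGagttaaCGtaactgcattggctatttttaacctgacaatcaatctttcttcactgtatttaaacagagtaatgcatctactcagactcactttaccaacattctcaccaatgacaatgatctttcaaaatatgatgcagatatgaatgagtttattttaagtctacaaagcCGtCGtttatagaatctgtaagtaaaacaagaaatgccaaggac
Pax6: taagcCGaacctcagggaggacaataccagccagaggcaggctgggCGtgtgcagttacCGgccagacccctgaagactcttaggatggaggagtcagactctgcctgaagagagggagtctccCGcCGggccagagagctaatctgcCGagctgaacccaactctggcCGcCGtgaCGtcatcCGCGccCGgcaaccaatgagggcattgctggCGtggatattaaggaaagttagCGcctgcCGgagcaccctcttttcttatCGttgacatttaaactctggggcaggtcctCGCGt

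Olfr12 (chr1:92619631-92619930, plus strand) held 1 CpG in these 300 bases, Olfr1414 (chr1:92518466-92518765, minus strand) held 3, and Olfr222 (chr11:59571689-59571988, minus strand) held 5. Olfr1099 (chr2:86959407-86959706, minus strand) held 0 and Olfr1102 (chr2:87001682-87001981, plus strand) held 4. Pax6 (chr2:105668646-105668945, plus strand) held 18. Over the RefSeq table, 33.8% of 929 receptor gene entries had no CpG and 0.215% had 10 or more, against 4.38% and 45.3% of 30467 other autosomal entries. The RefSeq start lay 2093 bp from the GENCODE start for Olfr12, 146 bp for Olfr1414, 4497 bp for Olfr222, 1237 bp for Olfr1099, 3534 bp for Olfr1102 and 4 bp for Pax6.

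Peaks lay over the whole printed stretch of Olfr12 in 15 of 16 libraries and over 19% of it in HSPC WT H2AK119ub replicate 2. The printed stretch of Olfr1414 was covered in 14 libraries, the exceptions being H2AK119ub in HSPC WT replicate 2 and HSPC KO replicate 1. That of Olfr222 was covered in 15 libraries, the exception being HSPC WT H2AK119ub replicate 2. The printed stretch of Pax6 was covered whole in all 16 libraries, and those of Olfr1099 and Olfr1102 in 0. Stretches with few CpG at the RefSeq start thus stood among the fully covered receptor genes and among those with no peak. Where the RefSeq and GENCODE starts lie kilobases apart, the printed stretch may lie inside the gene and not at its promoter. The bases after the RefSeq start of Olfr1099 begin with atg, so that start may be the coding start.

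Most olfactory receptor genes carried neither mark in either cell type. A gene was counted as touched when a peak overlapped at least 1 base of its window. H2AK119ub peaks touched 121 and 113 receptor genes in the 2 WT and 147 and 133 in the 2 KO mES libraries, a mean of 128.5 ± 14.8 (SD, n = 4). In HSPC the same mark touched 103 and 74 in WT and 95 and 105 in KO, a mean of 94.25 ± 14.2 (SD, n = 4). Every mES library thus touched more receptor genes than any HSPC library for H2AK119ub. The mES lists were also longer, with 153953 to 166255 autosomal peaks against 112281 to 133629. Receptor gene coverage divided by the share of the autosomes covered was nearly level between the closest libraries, at 0.185 in mES WT replicate 1 and 0.183 in HSPC KO replicate 2.

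In mES cells H3K27me3 peaks touched 132 and 163 receptor genes (WT) and 247 and 175 (KO), a mean of 179.25 ± 48.7 (SD, n = 4). In HSPC they touched 142 and 148 in WT and 167 and 160 in KO, a mean of 154.25 ± 11.3 (SD, n = 4). The mES and HSPC counts overlapped for this mark. These counts were between 6.56% and 21.9% of the receptor genes, against between 50.1% and 84.4% of other genes. The median receptor gene was covered to 0% in all 16 libraries, and the median other gene to between 0.143% and 12.6%.

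**Figure D1:**
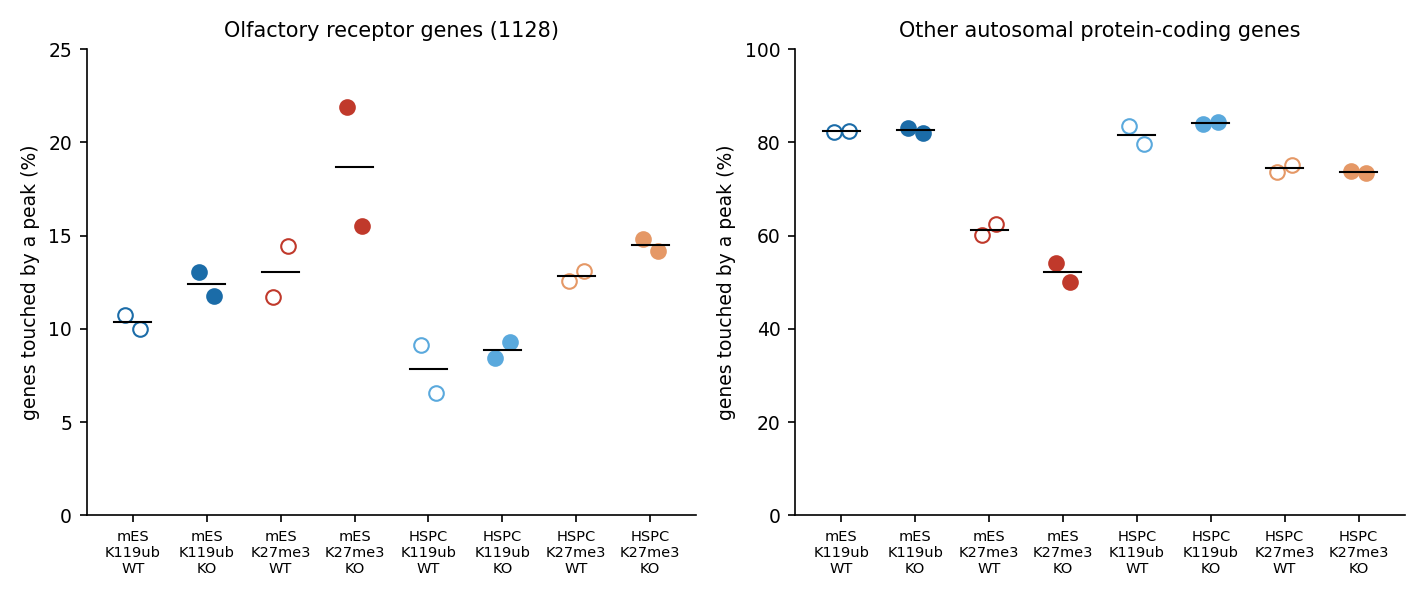
Share of genes touched by a peak (%, y axis) in each of the 8 groups (x axis; K119ub is H2AK119ub and K27me3 is H3K27me3), for 1128 olfactory receptor genes on the left (axis to 25%) and other autosomal protein-coding genes on the right (axis to 100%). Points are libraries (open WT, filled KO) and black lines are means of 2. Receptor genes lay between 6.56% and 21.9%, other genes between 50.1% and 84.4%, and H3K27me3 in mES cells was higher in KO for receptor genes and lower in KO for other genes.

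Windows of other genes are longer, so coverage was also set per base and at fixed width. H2AK119ub covered 1.99%, 1.95%, 2.35% and 2.20% of the receptor gene bases in mES WT 1, WT 2, KO 1 and KO 2, and 1.17%, 0.810%, 1.05% and 1.33% in HSPC. H3K27me3 covered 2.83%, 3.60%, 4.80% and 3.04% in mES cells and 4.27%, 4.31%, 5.64% and 5.15% in HSPC. Divided by the share of the autosomes covered in the same library, these values lay between 0.140 and 0.225 for H2AK119ub, between 0.363 and 0.542 for H3K27me3 in mES cells, and between 0.621 and 0.766 for H3K27me3 in HSPC. Receptor genes were therefore below the genome-wide share in all 16 libraries, most of all for H2AK119ub.

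Bases outside every protein-coding window gave a reference without genes. They were covered to between 3.17% and 7.83% by H2AK119ub and to between 4.88% and 8.19% by H3K27me3. The receptor gene value was below this reference in all 16 libraries, and it came closest in HSPC KO H3K27me3, at 5.64% against 6.00% and 5.15% against 5.49%.

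Over the 16 libraries, 745 receptor genes (66.0%) were never touched by either mark, against 7.11% of other genes. At the other end, 15 receptor genes (1.33%) were touched in every library, against 34.2% of other genes. They were Olfr1416, Olfr1414, Olfr1411, Olfr1410 and Olfr12 on chromosome 1, Olfr222, Olfr223, Olfr462 and Olfr464 on chromosome 11, Olfr522 and Olfr524 on chromosome 7, Olfr288 and Olfr279 on chromosome 15, Olfr95 on chromosome 17 and Olfr71 on chromosome 4. Between these extremes, 268 genes carried a peak in 1 to 7 libraries, and 115, the 15 included, in at least 8. Reads from near-identical receptor genes may align to any copy, so the value of a single gene is uncertain where close paralogues exist.

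The most covered receptor genes carried both marks, at levels that differed by mark and cell type. For Olfr222, H3K27me3 covered 84.1%, 95.6%, 93.5% and 89.5% of the window in mES WT 1, WT 2, KO 1 and KO 2, and 100%, 99.7%, 100% and 100% in HSPC. H2AK119ub on Olfr222 covered 60.2%, 54.2%, 54.8% and 67.9% in mES cells and 27.6%, 12.6%, 34.1% and 58.1% in HSPC. Olfr222 was thus near complete for H3K27me3 in both cell types and partial for H2AK119ub.

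Olfr71 had the highest H2AK119ub mean of any receptor gene in both cell types. H2AK119ub covered 97.7%, 79.3%, 96.7% and 69.5% of the Olfr71 window in mES cells and 52.0%, 33.0%, 63.3% and 75.6% in HSPC. H3K27me3 covered 86.9%, 97.1%, 97.8% and 78.3% of Olfr71 in mES cells and 28.8%, 19.1%, 17.05% and 15.4% in HSPC. The cell types did not overlap for H3K27me3 on Olfr71, which was higher in mES cells, and they overlapped for H2AK119ub.

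**Figure D2:**
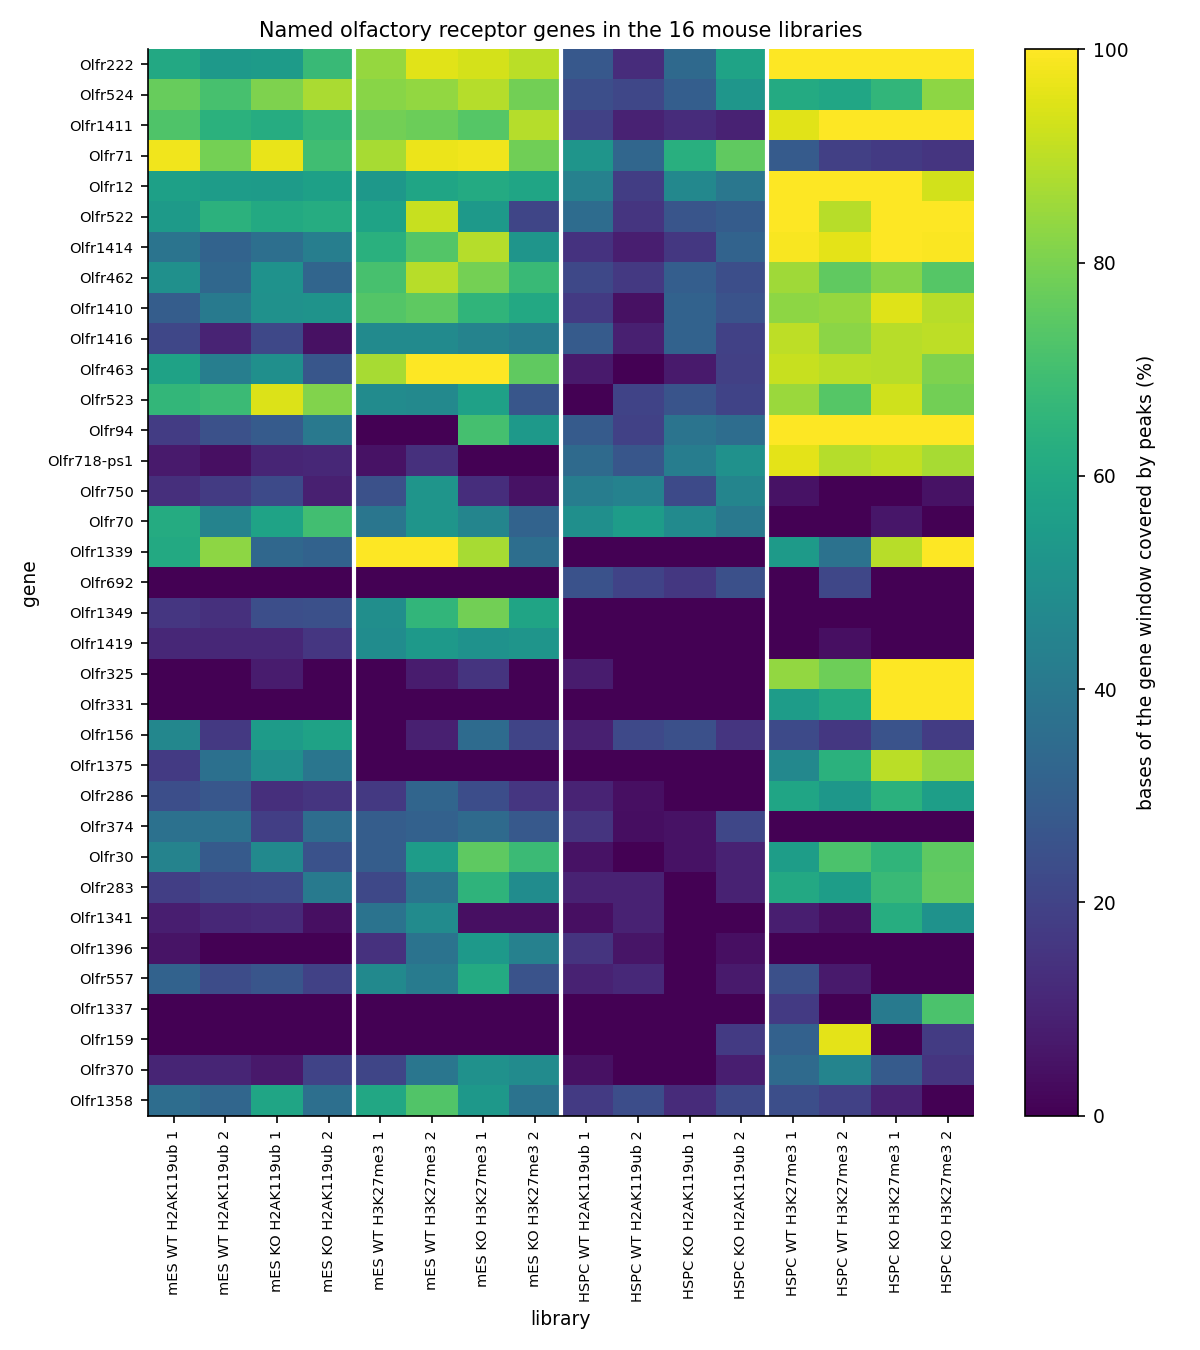
Percent of the window covered (colour, 0 to 100%) for the 35 named olfactory receptor genes (rows) in each of the 16 libraries (columns, grouped by cell type, mark and genotype). Olfr222 was between 84.05% and 100% in the H3K27me3 libraries, Olfr71 was at 28.8% or less there in HSPC, and Olfr1339 had 0 H2AK119ub in the 4 HSPC libraries.

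Receptor genes touched by the marks were richer in CpG, closer to genes of other families and in smaller clusters than those never touched. These are descriptions over genes, which share clusters and are not independent. The 115 genes touched in at least 8 libraries had a median of 8.14 CpG per kb, lay a median of 18.7 kb from the nearest other protein-coding gene and sat in groups with a median of 13 receptor genes. The 745 never touched had medians of 3.53 CpG per kb, 189 kb and 66 receptor genes. Median GC content also differed, at 43.8% in the 115 and 35.5% in the 745, and its separate part was not tested.

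Split by CpG density into 4 equal groups of 282, 93.3%, 85.8%, 61.7% and 23.4% of genes were never touched, from the poorest to the richest. Of the 115 genes touched in at least 8 libraries, 102 were in the richest group and 0 in the poorest. Split by distance to another protein-coding gene, 20% were never touched within 10 kb, 34.2% at 10 to 50 kb, 67.7% at 50 to 200 kb and 88.9% of 406 genes beyond 200 kb. CpG density and distance moved together over these bins, with medians of 6.70, 4.89, 3.79 and 3.57 CpG per kb, and their separate parts were not tested.

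Within receptor genes the share of bases covered was highest on the coding exon, which makes up a small part of the windows. H3K27me3 covered 9.29% ± 2.65 (SD, n = 4) of coding exon bases in mES cells against 3.20% ± 0.698 of introns and 2.16% ± 0.650 of the 1 kb flanks. In HSPC the values were 8.77% ± 1.31, 4.75% ± 0.643 and 3.71% ± 0.473. H2AK119ub covered 6.09% ± 0.714 of coding exon bases in mES cells and 3.58% ± 0.826 in HSPC, against 1.69% ± 0.199 and 0.768% ± 0.122 of introns. In all 4 sets the lowest library on coding exons was above the highest library on introns.

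Coding exons also differed in sequence, with 8.78 CpG per kb against 4.09 in introns and 4.19 in flanks. Repeats made up 6.08% of coding exons and 30.4% of introns, where short reads align less well, and the part of these properties in the coverage was not tested. Around the start codon, coverage was highest in the bin centred 0.375 kb downstream in all 4 sets. It reached 6.87% for H2AK119ub and 10.5% for H3K27me3 in mES cells, and 4.19% and 9.62% in HSPC. At 4.875 kb upstream it was 1.14%, 2.50%, 0.668% and 4.14% in the same order. The annotated transcription start lay a median of 3.00 kb before the start codon, and within 1 kb of it in 182 genes (16.1%).

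**Figure D3:**
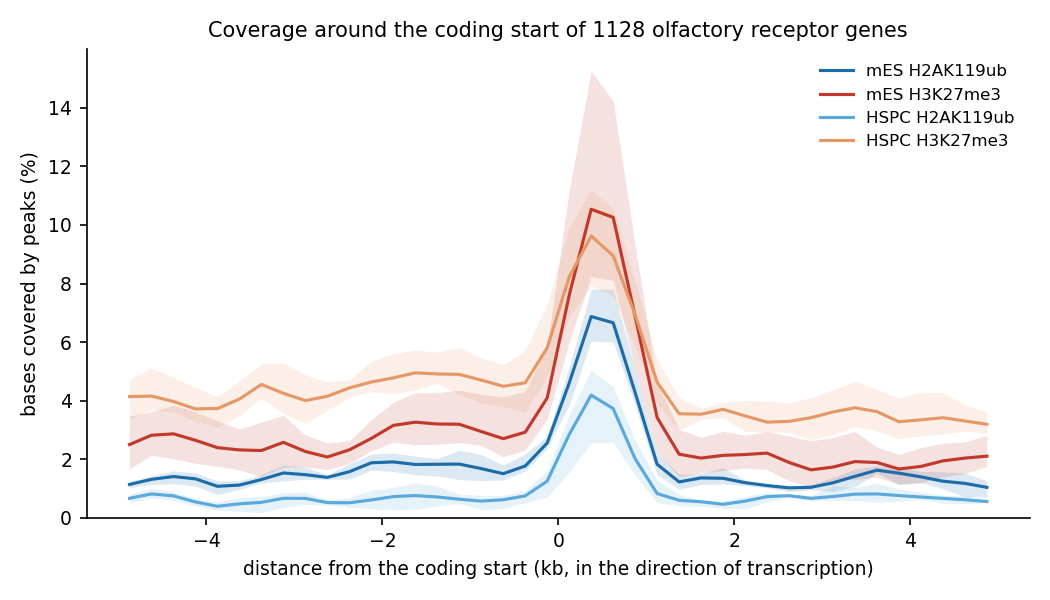
Mean percent of 1128 olfactory receptor genes covered (y axis) in 250-base bins by distance from the start codon (x axis, kb, in the direction of transcription), for each mark and cell type. Lines are means of 4 libraries and bands run from the lowest to the highest library, and each of the 4 lines peaked in the bin centred at 0.375 kb, between 4.19% and 10.5%.

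The 32 clusters ranged from nearly bare to nearly covered. The largest, on chromosome 2 (chr2:85330779-90403897), held 227 receptor genes, of which 213 (93.8%) were never touched. Its genes were covered to 0.0611% by H2AK119ub and 0.118% by H3K27me3 in mES cells, and to 0.00706% and 0.0194% in HSPC. A further 3 clusters of at least 20 genes were the lowest, with means over all libraries of 0.0332% (chr9:18751507-20336094, 37 genes), 0.0437% (chr2:111230360-112159157, 39 genes) and 0.050% (chr7:107812263-108894420, 42 genes).

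The most covered cluster was a group of 8 genes on chromosome 1 (chr1:92475925-92623412), with 5 of them touched in every library. H3K27me3 covered 53.7%, 60.3%, 62.3% and 49.3% of its windows in mES WT 1, WT 2, KO 1 and KO 2, and 86.8%, 84.1%, 92.9% and 90.1% in HSPC. H2AK119ub covered 34.1%, 31.7%, 38.1% and 33.7% in mES cells and 19.1%, 7.19%, 20.8% and 20.8% in HSPC. The cell types did not overlap for either mark and differed in opposite directions, higher in HSPC for H3K27me3 and higher in mES cells for H2AK119ub.

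The cluster around the beta-globin genes on chromosome 7 (chr7:102476579-105369355) holds class I receptor genes, the family's more ancient class. It had 129 receptor genes, 51 of them never touched. H3K27me3 touched 26, 38, 68 and 48 of them in mES WT 1, WT 2, KO 1 and KO 2 and 9, 13, 14 and 11 in HSPC. Coverage by H3K27me3 was 3.70%, 4.98%, 8.99% and 4.97% in mES cells and 0.865%, 1.36%, 1.58% and 1.24% in HSPC. The cluster was thus higher in every mES library than in any HSPC library, and KO replicate 1 stood above the other 3 mES libraries.

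**Figure D4:**
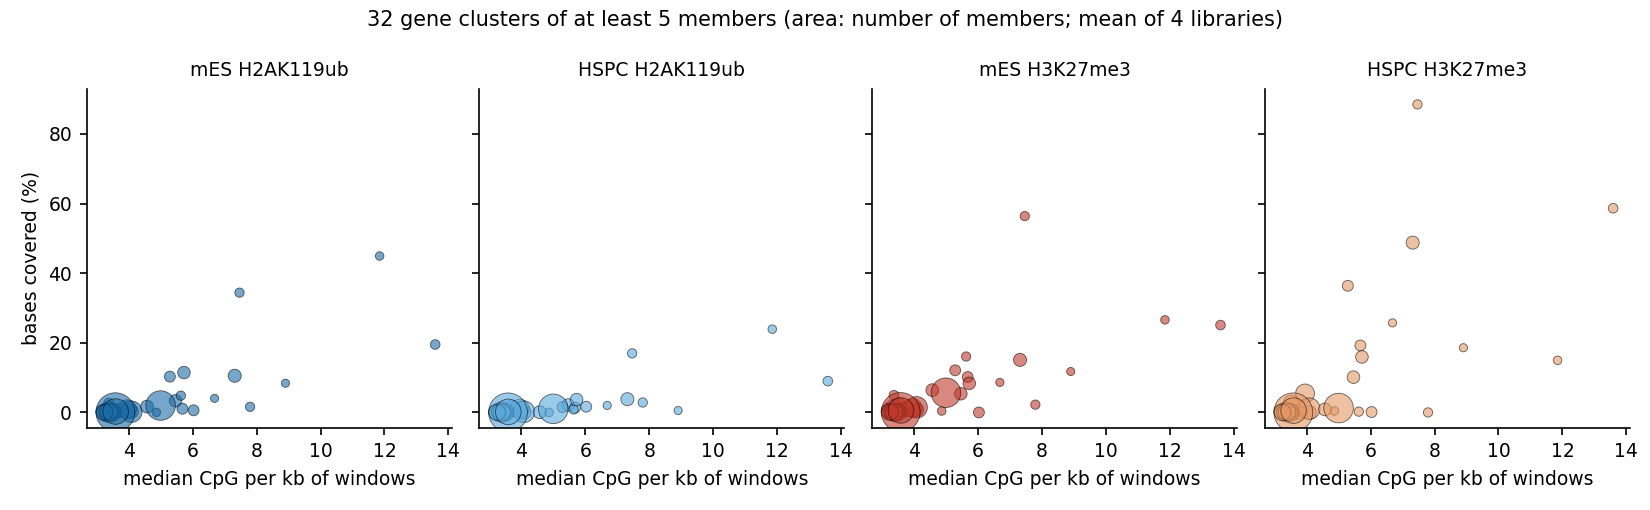
Percent of receptor gene windows covered (y axis) against median CpG per kb (x axis) for the 32 clusters, by mark and cell type, with each point the mean of 4 libraries and its area growing with the number of receptor genes. The cluster of 227 genes on chromosome 2 lay at 3.58 CpG per kb and at most 0.118%, and the chromosome 1 cluster at 7.47 CpG per kb and up to 88.5%.

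The first comparison was between mES cells and HSPC, over all 4 libraries of each mark. A gene was called higher in a cell type when its lowest library there was above the highest library of the other. For H2AK119ub, 40 receptor genes (3.55%) were called higher in mES cells, against 22.3% of all genes tested, and 5 (0.443%) were called higher in HSPC, against 23.8%. For H3K27me3, 44 (3.90%) were called higher in mES cells, against 18.6%, and 77 (6.83%) were called higher in HSPC, against 29.8%. A receptor gene without a peak cannot be called, and 241 and 347 of the 1128 were touched in any library for the 2 marks. Of all 20807 genes, 18176 and 17788 were.

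A gene called this way has a 2-sided exact permutation p of 0.0286, the smallest that 4 against 4 libraries allows. Adjusted over all genes by Benjamini-Hochberg, these exact p-values were 0.0620 for H2AK119ub and 0.0591 for H3K27me3, so 0 genes passed 0.05. The libraries pool both genotypes and each mark was profiled in separate lists, so the calls describe groups that do not overlap.

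Among genes higher in mES cells for H2AK119ub, Olfr523 was at 66.1%, 68.3%, 94.9% and 81.1% in mES cells and 0%, 19.9%, 26.0% and 19.9% in HSPC. Olfr1411 was at 72.4%, 63.9%, 62.0% and 66.8% against 19.3%, 9.38%, 12.5% and 9.38%. Both remained covered by H3K27me3 in HSPC, at 73.5% or more. Olfr718-ps1, which stands alone on chromosome 5, went the other way, at 7.36%, 4.28%, 10.2% and 11.2% in mES cells and 34.5%, 26.8%, 42.3% and 50.7% in HSPC for H2AK119ub.

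For H3K27me3, Olfr718-ps1 was at 4.79%, 13.7%, 0% and 0% in mES cells and 95.9%, 88.9%, 90.7% and 86.8% in HSPC. Olfr325 and Olfr331 lie in the chromosome 11 cluster (chr11:58454105-58844111), where 16 of 21 genes were called higher in HSPC. Olfr331 was at 0% in all 4 mES libraries and 55.3%, 60.8%, 100% and 100% in HSPC. In the opposite direction, Olfr1349 was at 49.3%, 66.0%, 78.5% and 58.2% in mES cells and listed with no peak in HSPC. Of the 44 genes higher in mES cells, 18 were in the class I cluster. That cluster also held 26 of 132, 38 of 163, 68 of 247 and 48 of 175 receptor genes touched in the mES libraries.

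The second comparison was between WT and Tet2 KO within each cell type and mark, 2 libraries against 2. A gene was called when both libraries of a genotype were above both of the other. With 2 against 2 no exact permutation p can go below 0.333, so no test could pass, and the counts are descriptions beside their backgrounds. A gene without a peak cannot be called. In mES cells 192 receptor genes and 17444 of all genes were touched in any library for H2AK119ub, and 274 and 13549 for H3K27me3. In HSPC they were 174 and 17421 for H2AK119ub, and 207 and 16547 for H3K27me3. Called shares therefore also depend on how many genes were touched.

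H3K27me3 in mES cells touched 63.5 more receptor genes on average in KO than in WT, and both KO libraries (247 and 175) were above both WT libraries (132 and 163). KO replicate 1 carried much of it, since the difference was 27.5 without it and 99.5 without KO replicate 2. The groups overlapped and the difference was 18.5 with peaks of at least 1 kb only, 14 within 1 kb of the start, 30.5 with at least 10% of the window covered and 40.5 on coding exons. The shares of other genes touched were lower in KO, at 60.2% and 62.4% in WT and 54.2% and 50.1% in KO. Called higher in KO were 70 receptor genes (6.21%), against 5.42% of all genes, and called higher in WT were 22 (1.95%), against 24.1%, or 92 (8.16%) in either direction, against 29.5%. Over all genes, touched or not, the share higher in KO was near the background and the share higher in WT was below it. Receptor genes were touched less often, at 274 of 1128 against 13549 of 20807. These shares therefore do not show whether the receptor genes that could be called were near the background. A total of 29 receptor genes (2.57%) gained a peak in both KO libraries with neither WT library touched, and 3 (0.266%) lost one. Of other genes, 153 (0.777%) gained and 1167 (5.93%) lost. Only a gene with no peak in either WT library could gain, and only one with a peak in both could lose. Both WT libraries touched 117 receptor genes and 11288 other genes, so these shares do not compare the genes that could change. Relative to the share of the autosomes covered in the same library, receptor gene coverage was 0.363 and 0.376 (WT) against 0.542 and 0.492 (KO). The list of KO replicate 1 was the longest of the 4, with 123715 autosomal peaks against 101084 to 118791. With every list cut to its first rows, at the length of the shortest mouse list, the difference was 55.5 with no overlap. The meaning of the row order is not given, so this cut cannot show the effect of list length.

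Of the 70 called higher in KO, 23 were in the class I cluster, 6 in the chromosome 11 cluster, and all 4 genes of a group on chromosome 17 (chr17:33168447-33275644) were called. The class I cluster also held 68 of the 247 and 48 of the 175 receptor genes touched in KO replicates 1 and 2. Olfr94 was at 0% and 0% in WT and 70.5% and 53.6% in KO, and it was at 100% in the 4 HSPC libraries. Olfr30 was at 29.5% and 55.4% in WT and 75.3% and 68.3% in KO. Higher in WT was Olfr522, at 58.0% and 91.4% in WT and 54.1% and 20.8% in KO.

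H2AK119ub in mES cells touched 23.0 more receptor genes in KO than in WT, with no overlap (113 and 121 against 133 and 147). The difference was 2 with overlapping groups when only peaks of at least 1 kb were used, and between 7 and 14 within 1 kb of the start, with the shortest list length, with at least 10% covered or on coding exons. The shares of other genes touched overlapped, at 82.2% and 82.6% in WT and 83.1% and 82.1% in KO. Called higher in KO were 40 genes (3.55%), against 15.6%, called higher in WT were 19 (1.68%), against 16.4%, and 59 (5.23%) in either direction, against 32.0%. Olfr156 was at 46.1% and 16.4% in WT and 55.1% and 57.5% in KO. Olfr1339 was at 60.7% and 83.1% in WT and 33.4% and 31.5% in KO.

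H3K27me3 in HSPC touched 18.5 more receptor genes in KO than in WT, again with no overlap (142 and 148 against 160 and 167). The shares of other genes touched overlapped, at 73.7% and 75.2% in WT and 73.9% and 73.4% in KO. Called higher in KO were 68 genes (6.03%), against 12.0%, called higher in WT were 15 (1.33%), against 20.5%, and 83 (7.36%) in either direction, against 32.4%. For H2AK119ub in HSPC the groups overlapped (74 and 103 against 95 and 105). The shares of other genes touched by H2AK119ub in HSPC did not overlap, at 83.5% and 79.7% in WT and 83.9% and 84.4% in KO. There 23 genes (2.04%) were called higher in KO, against 19.2%, 11 (0.975%) higher in WT, against 9.81%, and 34 (3.01%) in either direction, against 29.0%. Olfr222 was at 27.6% and 12.6% in WT and 34.1% and 58.1% in KO.

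A cluster of 13 genes on chromosome 4 (chr4:118658952-118938612) held 11 of the 68 genes higher in KO for H3K27me3 in HSPC and was chosen after its values were seen. Its coverage was 22.1% and 23.2% in HSPC WT and 52.7% and 47.4% in HSPC KO. In mES cells it was 15.8% and 17.8% in WT and 9.97% and 4.87% in KO, with 4 genes called higher in WT and 0 in KO. The order of the genotypes was thus opposite in the 2 cell types, and the difference between cell types was not tested.

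Within that cluster, Olfr1339 was at 100% and 100% in mES WT, 86.8% and 36.2% in mES KO, 54.4% and 37.7% in HSPC WT, and 89.2% and 100% in HSPC KO. Olfr1341 was at 38.0% and 48.1% in mES WT, 4.20% in both mES KO libraries, 8.41% and 4.20% in HSPC WT, and 62.4% and 51.1% in HSPC KO. Olfr1337 had no H3K27me3 peak in mES cells and was at 16.98% and 0% in HSPC WT and 40.7% and 71.7% in HSPC KO.

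**Figure D5:**
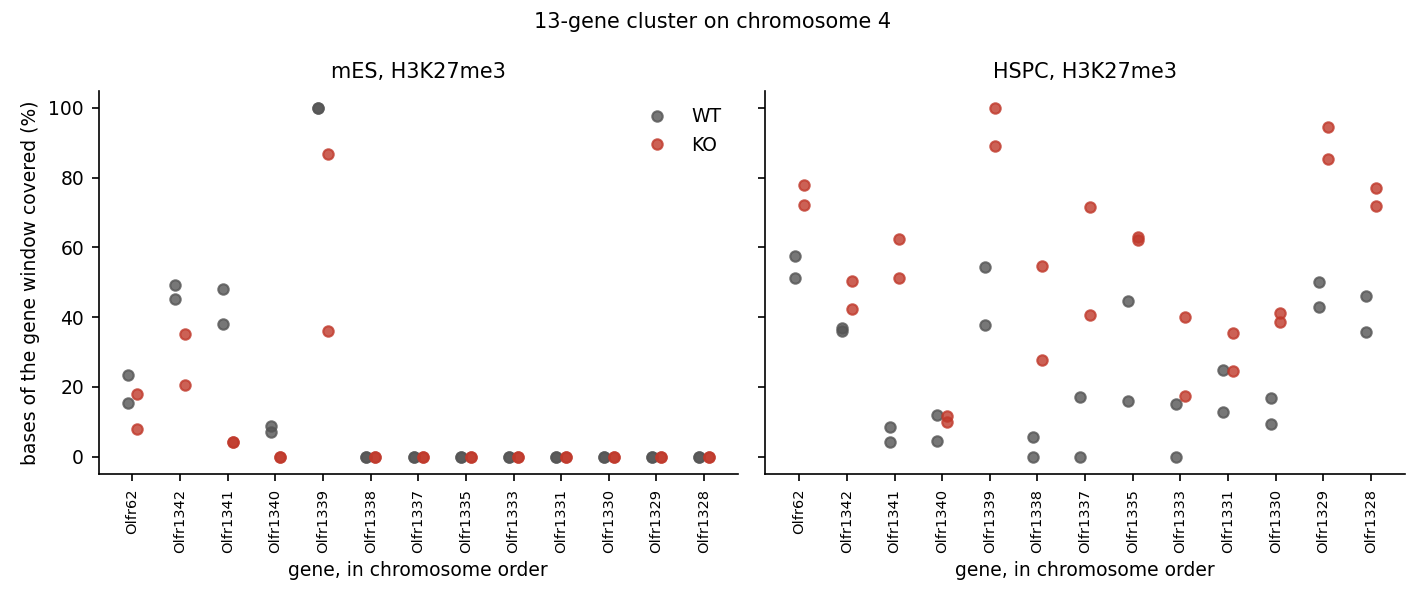
Percent of the window covered by H3K27me3 (y axis) for the 13 olfactory receptor genes of the chromosome 4 cluster (x axis, in genomic order) in mES cells and HSPC, with 1 point per library (grey WT, red KO). In HSPC 11 of the 13 genes had both KO libraries above both WT libraries, and in mES cells 4 had both WT libraries above both KO libraries.

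The marks were also compared with each other. In WT mES cells, 96 receptor genes were touched by H2AK119ub and 117 by H3K27me3 in both replicates, and 67 were shared, 69.8% and 57.3% of each. In WT HSPC the counts were 54 and 122 with 34 shared, 63.0% and 27.9% of each. Over other genes the shared set was 69.7% of the H2AK119ub genes and 96.5% of the H3K27me3 genes in WT mES cells, and 81.8% and 92.4% in WT HSPC. As plain percents, the H2AK119ub share in mES cells was like that of other genes, and the H3K27me3 shares were lower in both cell types. In WT mES cells 15637 and 11288 of 19679 other genes were touched by H2AK119ub and H3K27me3, against 96 and 117 of 1128 receptor genes. A share rises with the number of genes the other mark touches, so these percents do not compare how closely the marks coincide. No test was made of these shares, which move with the number of peaks called.

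Other clustered gene families were touched at rates on either side of the receptor genes, over windows of unlike length. Median windows were 7.99 kb for olfactory receptor genes, 8.80 kb for Vmn1r, 29.2 kb for Vmn2r, 3.05 kb for Taar, 2.89 kb for Krtap and 5.18 kb for Defb. Pheromone receptors of the Vmn1r family, with 4.12 CpG per kb, were touched in 1 to 18 of 208 genes per library, and those of the Vmn2r family, with 3.83, in 0% to 20.2% of its genes. Trace amine receptors (Taar), which also act in olfactory neurons, were touched in 0 to 6 of 15, keratin-associated protein genes (Krtap) in 4 to 29 of 57, and beta-defensin genes (Defb) in 10 to 22 of 42. Median CpG per kb was 7.47 for Taar, 7.88 for Krtap and 6.84 for Defb, against 3.95 for olfactory receptor genes. The Defb share was above that of olfactory receptor genes in every set, at 23.8% or more, and the Vmn1r share was below it in every set, at 8.65% or less. By mean percent of bases covered, Vmn1r and Vmn2r were below olfactory receptor genes in every set, Krtap and Defb above, and Taar on both sides. For H3K27me3, Vmn2r was at 0.568% against 3.57% in mES cells and 0.0929% against 4.80% in HSPC. The 16 Polycomb targets were covered to 53.9% and 67.0% by H2AK119ub and H3K27me3 in mES cells and to 43.2% and 77.4% in HSPC. Of 15 genes for olfactory signal transduction and receptor trafficking, between 12 and 15 were touched per library, over a median window of 69.5 kb. Of 12 regulators of receptor choice and of olfactory neurons, between 5 and 12 were touched, over a median window of 31.1 kb.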

How the data were processed

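CUT&Tag of H2AK119ub and H3K27me3 gave 16 mouse peak lists, 1 per library. Reads were trimmed (Trimmomatic 0.39) and aligned to mm10 (Bowtie2 2.4.1) per the labels' processing notes, with Drosophila chromatin as spike-in. The study's methods name MACS2 in broad mode, the processing notes name HOMER 4.9, and which tool wrote the lists is not given in the sources used here. The lists deposited by the authors hold peak starts and ends only, with no score, read count or spike-in scaling, so they were compared as called and depth is unknown. The human cell line lists were not used here.

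Peaks were merged per library and the percent of each gene window covered was computed (Python 3.11.15, numpy 2.4.6, pandas 2.3.3), against GENCODE vM21 genes on the autosomes. Sequences around the annotated start came from RefSeq (GRCm38.p6). Cell types were compared with exact permutation tests over 4 against 4 libraries, adjusted over all genes. Genotypes were compared by non-overlap of 2 against 2. The 4 against 4 rule was tried on simulated data, with shifts planted in genes more covered than most receptor genes. The 2 against 2 rule was not simulated. Alternatives were shorter windows, longer peaks, equal list lengths, a 10% coverage minimum, left-out libraries and a replicate block. Equal list lengths kept the first rows of each list, in an order whose meaning is not given, so they need not drop the weakest peaks.

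The receptor genes and the lists were chosen with earlier results of these data known. Named genes were the 10 touched in most libraries, the 5 most covered per mark and cell type, and the 3 called genes with the largest difference per comparison and direction.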

Additional observations from a re-analysis of the deposited data

Results flagged for a closer look

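Some olfactory receptor genes and clusters had KO and WT libraries ordered one way in mES cells and the opposite way in HSPC, with both KO libraries on the same side of both WT libraries each time. This was looked for among 35 named genes and 32 clusters, for 2 marks. The named genes include those with the largest differences between genotypes, so they were partly chosen on the values compared here. How many would be ordered this way by chance was not estimated. The differences between cell types were not tested, and values are KO minus WT in percentage points of the window covered.

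For H3K27me3, Olfr1339 was at -38.5 in mES cells and 48.5 in HSPC, and Olfr1341 at -38.8 and 50.4. Both lie in the chromosome 4 cluster of 13 genes, which was at -9.37 in mES cells and 27.4 in HSPC for H3K27me3, and at -4.32 and 0.958 for H2AK119ub. Olfr1410 on chromosome 1 was at -11.2 in mES cells and 8.60 in HSPC for H3K27me3. Olfr370 on chromosome 8 had the other order, at 19.3 in mES cells and -17.9 in HSPC. A cluster of 10 genes on chromosome 10 was at 1.33 in mES cells and -1.10 in HSPC for H2AK119ub.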

How the results depend on the processing

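Of 211 alternatives 63 moved a value and 0 turned a difference whose groups did not overlap. The overlapping difference for H2AK119ub in HSPC, 11.5, was -3 without WT replicate 2. The mean number of receptor genes touched, given here for H2AK119ub in mES cells, H3K27me3 in mES cells, H2AK119ub in HSPC and H3K27me3 in HSPC, fell to 47.5, 77.75, 18.75 and 91 with peaks of at least 1 kb, to 50.75, 89, 34.75 and 101.5 within 1 kb of the annotated start, and to 66, 105.75, 36 and 113.25 with at least 10% of the window covered. For H2AK119ub it was 64.25 and 48 with lists cut to their first rows at the length of the shortest. Without genes near another start it was 108.75 (H2AK119ub, mES), 73.25 (H2AK119ub, HSPC) and 133.25 (H3K27me3, HSPC), and on coding exons only, a setting chosen after seeing the data, 94.5, 64.5 and 121.5. Leaving out chromosomes 6 and 13 in mES cells, also chosen after seeing the data, moved no value beyond the spread.

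The KO minus WT difference for H2AK119ub in mES cells was 2 with the groups overlapping (peaks of at least 1 kb), 8.5 (start), 9.5 (shortest list), 7 (at least 10%) and 14 (coding exons). For H3K27me3 in mES cells it was 18.5 with longer peaks and 14 at the start, both with overlapping groups, and for H3K27me3 in HSPC it was 12 at the start and 24 on coding exons.

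Genes called between cell types, with peaks of at least 1 kb and then at the start, were 16 and 13 (H2AK119ub, higher in mES), 3 and 1 (H2AK119ub, higher in HSPC), 19 and 17 (H3K27me3, higher in mES) and 49 and 39 (H3K27me3, higher in HSPC). The shortest list gave 23 higher in mES and 3 higher in HSPC for H2AK119ub, where windows without flanks gave 3 and genes with no near start 2. Between genotypes they were 21 and 14 (H2AK119ub, mES; 30 with the shortest list), 34 and 34 (H3K27me3, mES), 7 and 17 (H2AK119ub, HSPC) and 53 and 43 (H3K27me3, HSPC). Fewer bases can be called in shorter windows and lists.

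Leaving out 1 library gave means of 122.33 to 133.67 and 156.67 to 195 genes touched in mES cells and 90.667 to 101 and 150 to 158.33 in HSPC, for H2AK119ub and H3K27me3. KO minus WT ranged from 16 to 30 and 27.5 to 99.5 in mES cells and from -3 to 26 and 15 to 22 in HSPC. Genotype calls ranged from 89 to 114, 128 to 214, 68 to 83 and 115 to 142, as fewer libraries must agree. Cell type calls ranged from 41 to 50 and 5 to 9 for H2AK119ub and from 45 to 62 and 77 to 86 for H3K27me3, higher in mES and in HSPC, where the 9 was without HSPC KO replicate 1.

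Same-numbered replicates did not deviate together, with correlations of 0.0564, -0.274, -0.0673 and -0.0204 over 383 genes, so the numbers were not taken as pairs. With a replicate block the differences per pair were 26 and 20, 115 and 12, -8 and 31, and 25 and 12, with means of 23, 63.5, 11.5 and 18.5. The block gave 76, 103, 40 and 101 genotype calls, and 44, 5, 47 and 78 cell type calls. Crossed pairing, added after seeing the data, gave 123 calls for H3K27me3 in mES cells.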

Other observations

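Peaks on olfactory receptor genes differed in width by mark. In HSPC the median H2AK119ub peak on a receptor gene was 501 bases in all 4 libraries, which was the commonest width in each of the 16 lists, against 651 to 672 for all autosomal peaks. The median H3K27me3 peak there was 765 to 915.5 bases, and 8 to 11 peaks per HSPC library were longer than 10 kb, the longest 37.6 kb. In mES cells 0 to 2 H3K27me3 peaks per library on receptor genes were that long.

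Replicates shared fewer touched receptor genes than other genes. Of the receptor genes touched in a library, between 52.4% and 93.1% were also touched in the other replicate, against between 89.3% and 98.2% of other genes. Such overlap rises with the share of genes touched, which was 6.56% to 21.9% for receptor genes and 50.1% to 84.4% for other genes. These overlaps therefore do not show that receptor genes were less reproducible.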
